A study of Rattus norvegicus with 36 samples.

Results

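The infralimbic prefrontal cortex (IL) of rats after 4 weeks of abstinence from cocaine was compared with the IL of rats at acute withdrawal, across all miRNAs counted. The members were chosen by the sample labels alone, as the libraries labelled with this brain region and with 1 of these 2 intervals since the last cocaine session. They make up 8 of the 36 small RNA libraries of the series, 4 from abstinence rats and 4 from withdrawal rats, each from a different animal. All rats were male heterogeneous stock (HS) rats, an outbred line, and each rat also gave a library of the prelimbic cortex (PL) and of the nucleus accumbens (NAc). Rats of both groups had self-administered cocaine intravenously, first in short and then in long sessions that led to escalated intake. Abstinence rats were then kept without cocaine for 4 weeks, and withdrawal rats were killed 16 h (sample labels) or 18 h (study methods) after the last session. A group of 4 cocaine-naive rats, which had no cocaine, gives the level in the IL beside each result. Ages were matched when self-administration began, so time since cocaine and age at death cannot be told apart between abstinence and withdrawal. The question of the comparison is which miRNAs of the IL differ between early withdrawal and protracted abstinence.

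The IL is the ventral part of the rat medial prefrontal cortex. It projects to the shell of the nucleus accumbens and is known for its part in the extinction of drug seeking. A miRNA gene is transcribed as a hairpin, which is cut into a 5p arm and a 3p arm. Usually 1 arm is loaded into Argonaute and lowers the translation and stability of mRNAs that pair with its seed, the stretch of bases 2 to 8, while the partner arm is degraded and is found at low level. Names are given below without the species prefix, and a level is log2 of the CPM, the counts scaled to a library of 1e6 counts (log2 CPM).

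The mature sequences of the miRNAs on which the results turn are printed here with the seed in capitals, 5′ to 3′, as listed by RefSeq for the build GRCr8. The RefSeq table held a sequence for 26 of the 29 miRNAs called below. The first set is the 6 called miRNAs whose 4 abstinence and 4 withdrawal levels did not overlap, lower ones first.
miR-187-3p: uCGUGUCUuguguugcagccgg
miR-541-5p: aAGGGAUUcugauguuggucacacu
miR-101a-3p: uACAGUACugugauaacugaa
miR-153-3p: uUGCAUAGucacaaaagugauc
miR-382-3p: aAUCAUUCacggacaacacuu
miR-499-5p: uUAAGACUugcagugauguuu
The second set shows called miRNAs that share a seed, or nearly so, with another tested miRNA. The seeds of miR-101a-3p and miR-101b-3p were identical, as were those of miR-449a-5p and miR-34c-5p. The seeds of miR-153-3p and miR-448-3p had 6 of 7 bases equal, although the former was called higher and the latter lower. The sequences of let-7a-1-3p and let-7c-2-3p were the same in every base, and so were their counts in all 8 libraries, so that these 2 entries are 1 measurement.
miR-101b-3p: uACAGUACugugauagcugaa
miR-448-3p: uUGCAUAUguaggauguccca
miR-449a-5p: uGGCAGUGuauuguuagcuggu
miR-34c-5p: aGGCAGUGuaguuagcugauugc
let-7a-1-3p: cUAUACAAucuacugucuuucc
let-7c-2-3p: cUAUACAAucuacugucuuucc
The third set shows 4 further miRNAs called higher, all of low GC content, and miR-409a-3p, the most abundant miRNA called lower.
miR-369-3p: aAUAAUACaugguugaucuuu
miR-384-3p: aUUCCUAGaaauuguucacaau
miR-374-3p: cUUAGCACguuguauuauuauu
miR-137-3p: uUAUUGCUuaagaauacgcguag
miR-409a-3p: aAUGUUGCucggugaacccc

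The counts assigned to mature miRNAs were 6192155 to 11150270 per library in the abstinence IL and 8888971 to 10350700 in the withdrawal IL. The RNA integrity number was 7.9 to 9.1 in the former and 8.2 to 9 in the latter. The IL of these rats was dominated by miR-128-3p, a miRNA enriched in neurons, which took 14.6% to 26.9% of a library. Among the 29 miRNAs called below, 12 had a mean of fewer than 20 counts over the 8 libraries, 7 of the higher and 5 of the lower. The library of withdrawal rat M153 stood apart before any test. It lay at -15.4 on the second principal component of the 12 IL libraries (17.4% of the variance), on which the other 11 lay between -7.85 and 8.5. On the first component (19.8%) it lay at -8.13, within the range of the others, -10.7 to 12.3. After the test, it held the highest level of 11 of the 15 miRNAs called lower, a list chosen for high levels in withdrawal. Where leaving out that rat changes the call, the values without it or the loss of the call are therefore also given below.

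Of 457 miRNAs tested, 29 differed between abstinence and withdrawal by at least 1.5-fold with an unadjusted p under 0.05 in edgeR's quasi-likelihood test, the threshold of the study, which is 6.35% of those tested. Of these, 14 were higher in abstinence (3.06%) and 15 were lower (3.28%), and with scaling by library totals these were 19 and 13. In total 37 miRNAs had an unadjusted p under 0.05. After Benjamini-Hochberg adjustment 1 miRNA passed an adjusted p of 0.05 (0.219%), miR-187-3p. The 2 groups did not overlap in level for 18 miRNAs (3.94%), 8 higher and 10 lower, of which 6 were among the 29. The median change over all 457 miRNAs was 0.02 (log2), with 238 of 457 above 0. Without rat M153 the number of calls was 17, of which 9 were among the 29, namely miR-153-3p, miR-101a-3p, miR-425-3p and miR-369-3p higher and miR-187-3p, miR-541-5p, miR-542-5p, miR-551b-5p and miR-200b-3p lower. Abstinence rat M456 held the highest level of 8 of the 14 miRNAs called higher, and without it 13 of the 29 stayed called, 4 of the 14 higher and 9 of the 15 lower. With the rat as a random block in limma-voom, the number of calls was 18, of which 14 were among the 29. Without the block it was also 18, of which 16 were among the 29. In edgeR on the 12 IL libraries it was 33, with 20 of the 29, and on the 8 IL libraries 27, with 13 of the 29.

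**Figure D1:**
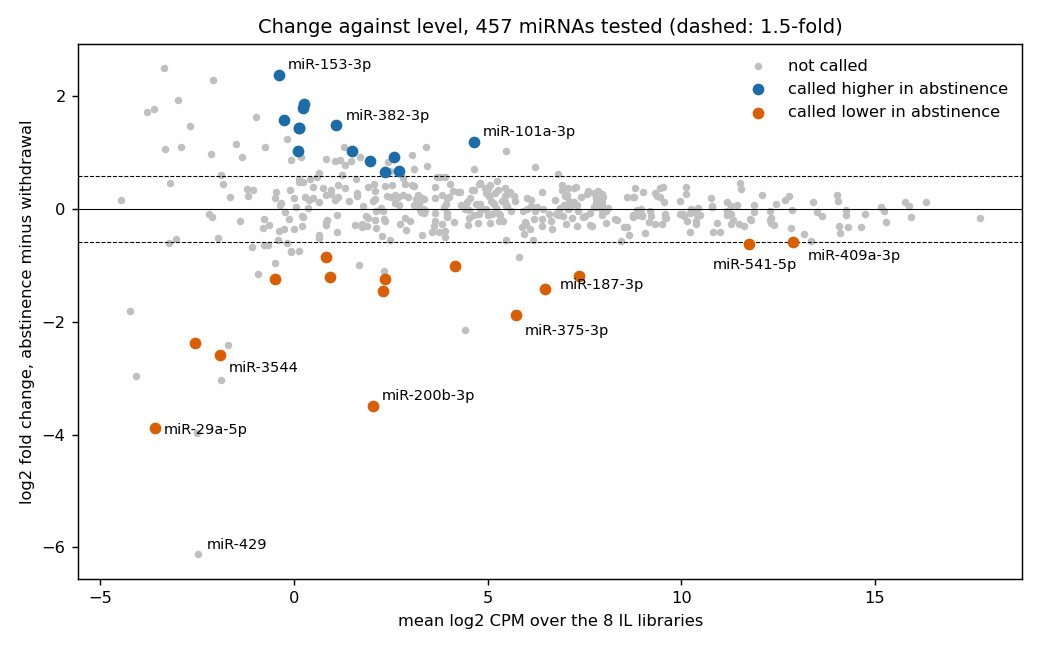
Log2 fold change (abstinence minus withdrawal, edgeR) of each of 457 miRNAs against its mean log2 CPM over the 8 IL libraries; 14 called miRNAs were higher (blue), 15 were lower (orange) and the others are grey. All 14 higher miRNAs lie at a mean log2 CPM under 5, and the lower ones reach from rare miRNAs to miR-409a-3p.

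miR-187-3p, the main product of a hairpin that lies between genes, was the miRNA with the lowest p. Its level was 5.50, 6.25, 5.97 and 5.72 log2 CPM in abstinence rats M170, M363, M472 and M456. It was 8.43, 7.02, 6.40 and 6.58 in withdrawal rats M153, M366, M172 and M154, and 6.27, 7.0, 7.43 and 6.2 in naive rats. Every abstinence rat was below every withdrawal rat, and naive rats ranged across the gap. Abstinence was 2.69-fold lower (log2 fold change -1.43, SE 0.31, edgeR adjusted p 0.0274), and the exact two-sided permutation test over all splits of 4 rats against 4 gave 0.0286, the smallest p it can give. That fit takes the 3 regions of a rat as separate libraries. The adjusted p was 0.141 in limma-voom, 0.178 there with the rat as a block, and 0.229 and 0.321 in edgeR on the 12 and the 8 IL libraries. Without rat M153 the change was -0.80 (SE 0.24, unadjusted p 0.00284), and the adjusted p was 0.886. The call at 1.5-fold held whichever of the 8 rats was left out, with log2 fold changes from -1.64 to -0.80. The partner arm miR-187-5p was at 3.41 to 4.05 in abstinence rats and at 5.93 in rat M153, 4.25, 4.21 and 3.74 in the other withdrawal rats. Its log2 fold change of -1.01 (SE 0.41) became -0.28 (p 0.456) without rat M153.

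In the tissue around the IL, miR-187-3p is a miRNA of the accumbens. It was at 1190 to 2160 CPM in the NAc of the 12 rats, against 45.1 to 346 CPM in the IL and 65 to 95 CPM in the PL. It was among 61 miRNAs that were at least 4-fold higher in the NAc than in the IL of the naive rats (adjusted p under 0.05, edgeR with the rat as a block), a list made without the 8 libraries compared here. Of these 61 accumbens-enriched miRNAs, 5 were called higher (miR-101a-3p, miR-153-3p, miR-369-3p, miR-382-3p and miR-137-3p) and 4 lower (miR-187-3p, miR-187-5p, miR-1298 and miR-448-3p), beside 6.35% called of all tested. Their median change was 0.27, with 39 above 0. Without rat M153, 4 were called higher and 1 lower. Their summed level was 1810 to 2690 CPM in abstinence rats and 1670 to 3150 CPM in withdrawal rats. Rat M153 was at 2790 CPM and so was not the highest of its group by this sum. Of 7 cortex-enriched miRNAs chosen in the same way, 0 were called with all rats and 2 were called higher without rat M153 or M456. The part of accumbens tissue in the change of miR-187-3p was not tested.

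**Figure D2:**
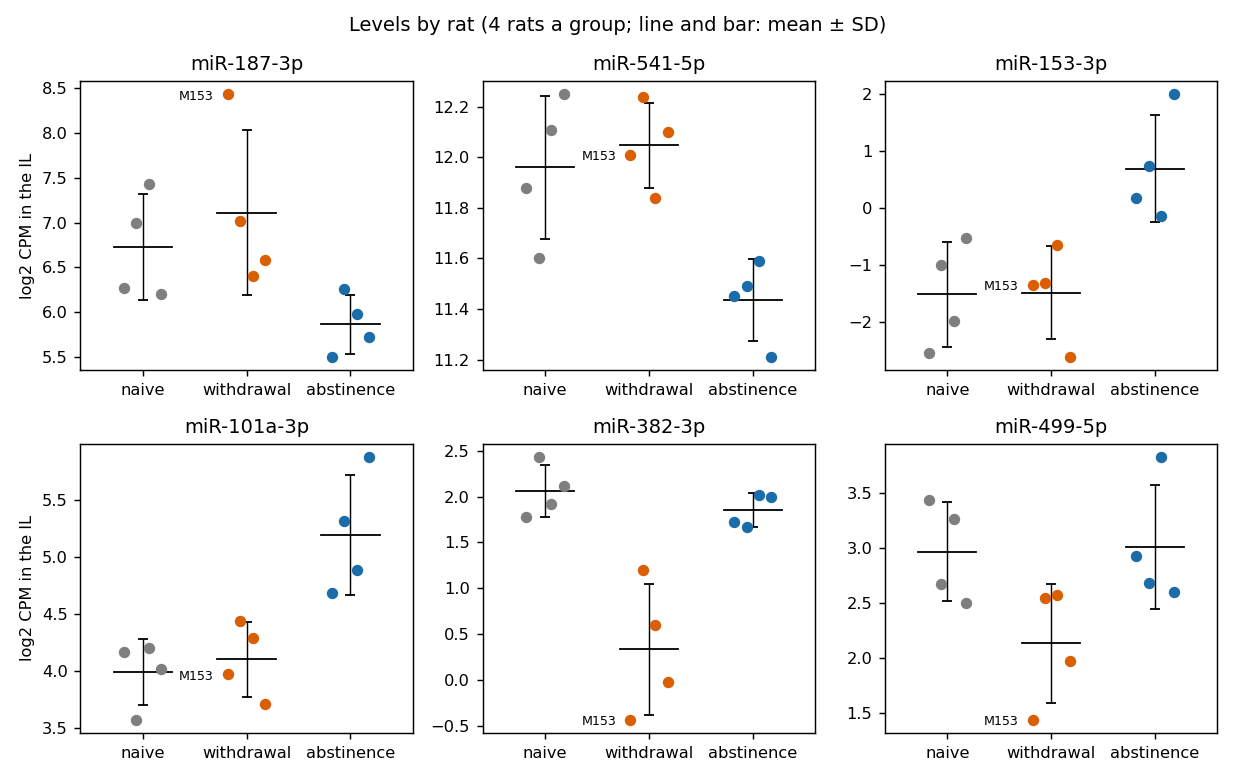
Log2 CPM in the IL of each rat for the 6 called miRNAs whose abstinence and withdrawal levels did not overlap (points, 4 rats a group; line and bar, mean and SD), with naive rats beside. miR-187-3p and miR-541-5p are lowest in abstinence, miR-153-3p and miR-101a-3p are highest there, and miR-382-3p is lowest in withdrawal. For miR-499-5p the withdrawal rats are below the abstinence rats and overlap the naive rats.

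Several called miRNAs lie in the imprinted Dlk1-Dio3 locus. This locus carries a large cluster of miRNAs, from miR-379 to miR-410, that is expressed from the maternal chromosome and is active in neurons. Of 59 cluster members tested, 2 were called lower and 3 higher, a share near the 6.35% of all tested, with a median change of -0.04 beside 0.02 for all miRNAs, and without rat M153 the calls were 1 and 1. The lower ones were abundant. miR-541-5p was at 11.45, 11.49, 11.59 and 11.21 in abstinence rats M170, M363, M472 and M456, and at 12.01, 12.24, 11.84 and 12.10 in withdrawal rats M153, M366, M172 and M154. The groups did not overlap, with means of 11.44 ± 0.16 and 12.04 ± 0.17 (SD, n = 4 each), and naive rats were at 11.60 to 12.25. The change was 1.53-fold lower (-0.62, SE 0.19, edgeR adjusted p 0.305), and it was -0.63 (p 0.00535) without rat M153. Without abstinence rat M456 or withdrawal rat M366 the change was under 1.5-fold, at -0.55 (p 0.013) and -0.56 (p 0.0119).

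miR-409a-3p, from the same cluster, was at 12.66, 13.05, 12.43 and 12.33 in abstinence rats M170, M363, M472 and M456 and at 13.58, 13.53, 12.78 and 12.80 in withdrawal rats M153, M366, M172 and M154. Abstinence rat M363 lay above 2 of the withdrawal rats. The change of -0.59 (SE 0.28, p 0.0454) was at the edge of both limits and was -0.44 (p 0.156) without rat M153. A pair of cluster members just below 1.5-fold separated the groups. miR-543-3p was at 12.75 to 13.29 in abstinence and 13.42 to 13.83 in withdrawal (-0.57, SE 0.18, edgeR adjusted p 0.305). miR-412-5p was at 5.64 to 6.04 and 6.26 to 6.61 (-0.55, SE 0.17, adjusted p 0.305).

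The 3 cluster members called higher were partner arms of low level. miR-382-3p was at 1.72, 1.67, 2.02 and 2.0 in abstinence rats M170, M363, M472 and M456, from 21 to 42 counts. It was at -0.43, 1.20, 0.61 and -0.02 in withdrawal rats M153, M366, M172 and M154, from 6 to 19 counts. The groups did not overlap, and naive rats, at 1.78 to 2.43, overlapped the abstinence rats and not the withdrawal rats. The log2 fold change was 1.48 (SE 0.57, p 0.0144, adjusted p 0.529 in edgeR), and 1.20 (p 0.0504) without rat M153. Against naive rats, the log2 fold change was 0.19 for abstinence and -1.29 for withdrawal. The other arm, miR-382-5p, was at a mean of 11.11 in abstinence and 11.24 in withdrawal and had a change of -0.12 (SE 0.13).

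miR-369-3p was at 1.14, 1.38, 0.13 and 1.92 in abstinence rats M170, M363, M472 and M456 and at 0.12, -0.65, 0.41 and -2.62 in withdrawal rats M153, M366, M172 and M154, the last of which held 1 count. Abstinence rat M472 was within the withdrawal range. The log2 fold change was 1.78 (SE 0.76, p 0.0254) in edgeR, and the call was lost without abstinence rat M456 or withdrawal rat M154. miR-299a-5p was at 1.58 to 3.14 in abstinence and 1.27 to 2.06 in withdrawal (0.84, SE 0.38, p 0.035), and the call was lost without any of rats M472, M456, M153 and M366. Among 25 other miRNAs of the locus, 1 was called, which is also near 6.35%, miR-3544, whose hairpin overlaps that of miR-337 in the RefSeq gene table. It had 0 to 5 counts in 7 of the 8 libraries. Rat M153 held 42 counts of it, and the change of -2.60 became 0.04 without that rat.

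Of the miRNAs of the serotonin 2C receptor gene, 3 were called lower, and these calls rested on rat M153. miR-448, miR-764, miR-1298 and miR-1912 lie in introns of Htr2c, which encodes a receptor that is dense in choroid plexus and is also found in neurons of the accumbens and cortex. Of 6 such miRNAs tested, the 3 called lower stand beside 3.28% of all tested, 0 were called higher, and the median change was -1.20, or -0.48 with 4 of 6 below 0 without rat M153. miR-1298, the most abundant, was at 7.01, 7.38, 6.63 and 6.57 in abstinence rats M170, M363, M472 and M456 and at 9.32, 7.56, 6.67 and 7.73 in withdrawal rats M153, M366, M172 and M154. Rat M153 was far above the rest, and withdrawal rat M172 lay within the abstinence range. The change was 2.28-fold lower (-1.19, SE 0.41, edgeR adjusted p 0.324) and -0.45 (p 0.207) without rat M153.

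miR-448-3p was at -0.43 to 1.16 in abstinence rats and at 2.71 in rat M153 and 0.61 to 1.84 in the other withdrawal rats (-1.21, SE 0.40, p 0.0045). miR-764-5p was at 1.17 to 2.44 in abstinence rats and at 4.55 in rat M153 and 1.33 to 2.80 in the others (-1.45, SE 0.48, p 0.0047). Neither passed the threshold without rat M153 (-0.72 with p 0.0836, and -0.50 with p 0.237), and 0 of the 6 were then called lower. The partner arm miR-764-3p then turned from -0.19 to 1.52 (p 0.0405), while miR-448-5p was at -0.55 (SE 0.35) with all rats. miR-1912-3p had 1 count in the withdrawal libraries and 0 in those of abstinence. Summed over the 6, rat M153 was at 685 CPM in the IL, against 108 to 230 CPM in the other 7 rats. In the NAc the same sum was 690 to 1400 CPM over all 12 rats, and in the PL it was 87.6 to 232 CPM.

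miRNAs known from choroid plexus and from ciliated ependymal cells, which line the ventricles, followed the same rat. miR-204 and miR-211 are known from choroid plexus epithelium, and miR-34b, miR-34c and miR-449 from multiciliated cells. Of 8 tested, 2 were called lower (miR-34b-3p and miR-449a-5p), 0 higher, 8 had a change below 0, and the median was -0.93. Over all 457 tested, 3.28% were called lower and 238 were above 0. miR-34b-3p was at 2.32, 1.61, 2.12 and 2.11 in abstinence rats M170, M363, M472 and M456 and at 4.81, 1.47, 1.68 and 2.75 in withdrawal rats M153, M366, M172 and M154. The change of -1.25 (SE 0.57, p 0.0353) was -0.02 (p 0.973) without rat M153. Leaving out any 1 of the abstinence rats also removed the call. Naive rat M476 was at 4.42, next to rat M153.

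miR-449a-5p had 1, 0, 4 and 0 counts in abstinence rats M170, M363, M472 and M456 and 24, 0, 0 and 5 counts in withdrawal rats M153, M366, M172 and M154. Its call rested on rat M153 (-2.38, SE 1.15, and -0.38 with p 0.785 without it). The call was also lost when any 1 of rats M170, M363, M456 and M154 was left out. miR-204-5p, the most abundant of the list, was at 9.90 to 10.48 in abstinence and 10.06 to 11.07 in withdrawal (-0.27, SE 0.19, p 0.183). miR-34c-5p, which shares its seed with miR-449a-5p, was at 5.36 to 5.83 in abstinence and at 7.76 in rat M153 and 5.15 to 5.65 in the other withdrawal rats. The summed level of the 8 was 1170 to 1750 CPM in abstinence and 2840 CPM in rat M153, against 1270 to 1660 CPM in the other withdrawal rats. Without rat M153, 0 of the 8 were called and the median was 0.06. As these are pieces of whole tissue, fewer cells of a type and less of a miRNA per cell cannot be told apart.

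**Figure D3:**
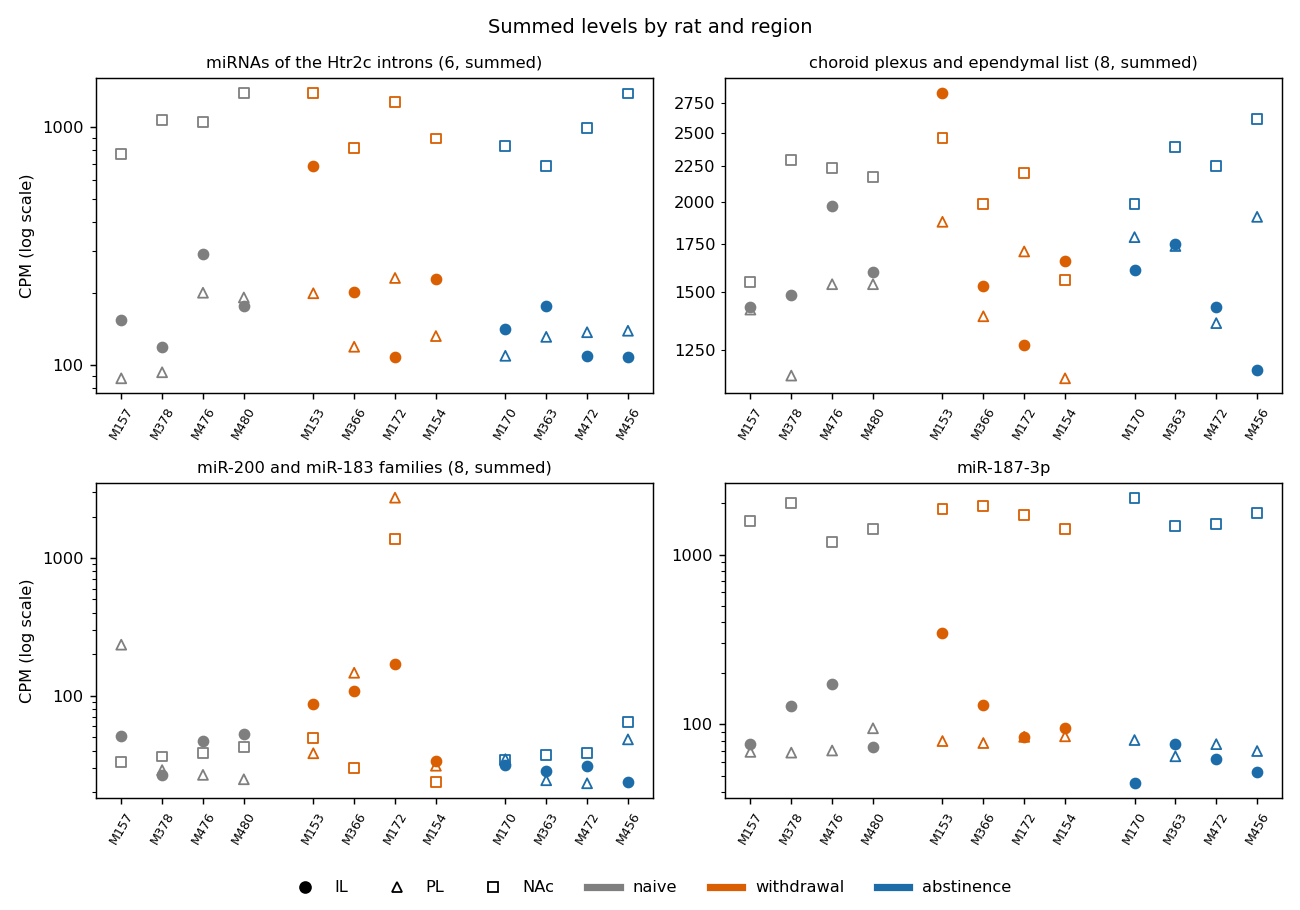
CPM on a log scale in each of the 12 rats (x axis, by group) for the summed miRNAs of the Htr2c introns, of the choroid plexus and ependymal list and of the miR-200 and miR-183 families, and for miR-187-3p, in the IL (filled circles), PL (triangles) and NAc (squares). The IL of withdrawal rat M153 stands at 685 CPM for the Htr2c miRNAs and at 346 CPM for miR-187-3p, and the miR-200 and miR-183 families reach 2740 CPM in the PL of withdrawal rat M172.

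miR-375-3p, known from endocrine cells of the islet and pituitary, was the other abundant miRNA called lower. It was at 5.60, 5.80, 4.93 and 5.14 in abstinence rats M170, M363, M472 and M456, and at 8.89, 5.57, 5.46 and 4.43 in withdrawal rats M153, M366, M172 and M154. Rat M153 alone was above the abstinence rats, and naive rat M476, at 7.26, was the next highest. The change of -1.88 (SE 0.72, p 0.0134 in edgeR) was 0.13 (p 0.808) without rat M153, and the exact permutation test with all rats gave 0.743. Unlike miR-187-3p, miR-375-3p was not higher in the accumbens, where its mean was 3.62 in withdrawal and 4.14 in abstinence.

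The miR-200 and miR-183 families are known from epithelia and sensory cells. Of 8 tested, 1 was called lower, miR-200b-3p, beside 3.28% of all tested, and 8 had a change below 0, with a median of -2.72. The number called lower was 0 without any of M170, M363, M472, M456 or M366, and 3, 5 and 4 without M153, M172 and M154. miR-200b-3p was at 0.52, 0.74, 0.13 and 1.01 in abstinence rats M170, M363, M472 and M456 and at 3.63, 4.52, 5.19 and 0.54 in withdrawal rats M153, M366, M172 and M154. Withdrawal rat M154 was within the abstinence range and the other 3 were above it. The change of -3.49 (SE 1.60, p 0.0366 in edgeR) was -3.70 (p 0.0249) without rat M153, and over the 8 rats left out it ranged from -3.89 to -3.03 with the call lost for 5 of them. miR-183-5p separated the groups, at 2.65 to 3.72 in abstinence and 4.01 to 6.49 in withdrawal, with a change of -2.15 (SE 1.17, p 0.0761).

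miR-182 did so too, at 1.33 to 2.09 and 2.42 to 3.23, with a change of -1.11 (SE 0.97, p 0.261). miR-429, a neighbour of miR-200b on the genome, had 0 counts in all 4 abstinence libraries and 27 counts over those of withdrawal, at least 8.74-fold lower when a floor of 3 counts over the group stands for the 0 (p 0.0523). Naive rats differed among themselves for miR-200b-3p, at 10.1 and 10.4 CPM in rats M157 and M480 and 0.907 and 1.55 CPM in rats M378 and M476. The summed level of both families was 23.8 to 31.7 CPM in abstinence rats and 87.1, 109, 169 and 33.5 CPM in withdrawal rats M153, M366, M172 and M154. In the PL and NAc of rat M172 the sum reached 2740 and 1370 CPM, against 23.2 to 235 CPM in the PL and 23.8 to 64.1 CPM in the NAc of the other 11 rats. The part of cells other than those of the cortex in these values was not tested.

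The remaining miRNAs called lower were rare. miR-542-5p, from an X-linked cluster with miR-503 and miR-450a, had 3, 5, 4 and 4 counts in abstinence rats M170, M363, M472 and M456 and 11, 3, 13 and 12 in withdrawal rats M153, M366, M172 and M154 (-1.25, SE 0.51, p 0.0203). Withdrawal rat M366 was at the level of abstinence. The call of miR-542-5p was lost when any 1 of rats M472, M172 and M154 was left out, and it held in 5 of 9 other settings. miR-551b-5p had 5, 7, 28 and 12 counts in abstinence rats and 11, 24, 34 and 24 in withdrawal rats (-0.85, SE 0.39, p 0.0358), and it was no longer called with any of 6 rats left out. miR-29a-5p, the partner arm of the abundant miR-29a-3p, had 0 counts in all abstinence libraries and 4, 0, 1 and 1 in those of withdrawal, which makes it at least 1.94-fold lower by a floor of 3 counts over the group. Of these 6 counts, 4 were in rat M153, and without it the rest is under the floor and the call is lost (p 0.142). miR-29a-3p had a change of 0.24 (SE 0.15).

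Among miRNAs higher in abstinence, miR-101a-3p had the highest level and kept its call whichever rat was left out. miR-101 is a conserved miRNA whose known targets include Ezh2, the methyltransferase of the Polycomb repressive complex. miR-101a-3p was at 4.68, 5.31, 4.89 and 5.88 in abstinence rats M170, M363, M472 and M456, from 166 to 535 counts, and at 3.97, 4.44, 4.29 and 3.71 in withdrawal rats M153, M366, M172 and M154, from 111 to 198 counts. The groups did not overlap, and naive rats, at 3.58 to 4.21, lay with the withdrawal rats. Abstinence was 2.27-fold higher (1.18, SE 0.40, edgeR adjusted p 0.314, exact permutation p 0.0286), with log2 fold changes from 0.97 to 1.40 over the 8 rats left out and 1.11 without rat M153. miR-101b-3p, of the same seed, was at 4.63 to 5.16 in abstinence and 4.20 to 4.51 in withdrawal. These groups did not overlap either, but the change of 0.69 (SE 0.38, p 0.079) was not called.

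miR-153-3p, a neuron-enriched miRNA that lies in an intron of Ptprn2 and is known to target the synaptic proteins SNAP25 and alpha-synuclein, had the largest increase of the 14. It had 7, 14, 9 and 36 counts in abstinence rats M170, M363, M472 and M456 and 3, 3, 6 and 1 in withdrawal rats M153, M366, M172 and M154. In level this was 0.17, 0.74, -0.14 and 2.0 against -1.34, -1.32, -0.65 and -2.62, without overlap, and naive rats were at -2.55 to -0.52. The change was 5.16-fold (2.37, SE 0.77, edgeR adjusted p 0.305) and was 2.35 without rat M153, and it was 1.67 (p 0.0539) without abstinence rat M456. Of 28 neuron-enriched miRNAs tested, 3 were called higher and 0 lower, beside 3.06% higher of all tested, with a median change of 0.13. The calls were 1 without rat M153 or M472 and 0 without rat M456. The others called were miR-137-3p and miR-218a-2-3p.

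miR-137-3p, from a gene linked to schizophrenia, was at 1.72, 1.09, 2.71 and 2.38 in abstinence rats M170, M363, M472 and M456 and at 0.84, 1.12, 0.41 and 1.84 in withdrawal rats M153, M366, M172 and M154 (1.01, SE 0.46, p 0.037). Naive rats were at 1.51 to 2.03, and abstinence rats M170 and M363 were within the withdrawal range. The call of miR-137-3p was lost when any 1 of rats M472, M456, M153 and M172 was left out. miR-218a-2-3p, from an intron of Slit3, was at -0.29 to 1.10 and -0.68 to 0.04 (1.02, SE 0.44, p 0.0278). Its call was lost when any 1 of rats M472, M456, M153 and M154 was left out. The abundant neuronal miRNAs had no call. miR-128-3p changed by -0.16 (SE 0.30), miR-129-5p by -0.23 (SE 0.25), miR-9a-5p by 0.13 (SE 0.41) and miR-124-3p by 0.22 (SE 0.21).

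miR-499-5p, encoded in an intron of the myosin gene Myh7b and known from heart and slow muscle, was at 2.93, 2.68, 3.83 and 2.60 in abstinence rats M170, M363, M472 and M456. It was at 1.44, 2.54, 2.57 and 1.97 in withdrawal rats M153, M366, M172 and M154. The groups were separated by a gap of under 0.1, between 2.57 and 2.60, and naive rats were at 2.50 to 3.44. The change was 0.91 (SE 0.41, p 0.0337) and 0.69 (p 0.132) without rat M153. Of 4 muscle-type miRNAs tested, 1 was called higher and 0 lower.

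let-7a-1-3p and let-7c-2-3p, the identical partner arms of 2 let-7 hairpins, had 11, 14, 13 and 25 counts in abstinence rats M170, M363, M472 and M456 and 5, 6, 14 and 2 in withdrawal rats M153, M366, M172 and M154 (1.42, SE 0.62, p 0.0294). Of 17 let-7 and miR-98 arms, these 2 were called, 0 without rat M153, and the median change was 0.03. The let-7 family is abundant in mature neurons, and its main arms were at means of 15.18 and 15.28 (let-7a-5p) and 15.82 and 15.73 (let-7c-5p) in abstinence and withdrawal. miR-384-3p had 8, 25, 10 and 66 counts in abstinence rats and 4, 1, 29 and 5 in withdrawal rats, so that withdrawal rat M172 overlapped (1.86, SE 0.79, p 0.0254). miR-30b-5p, which belongs to the related miR-30 family, had 38, 30, 78 and 82 counts in abstinence rats and 35, 31, 36 and 48 in withdrawal rats (0.65, SE 0.32, p 0.0472). The 13 arms of miR-30 and miR-384 had a median change of -0.04 and no further call. For each of these 2 miRNAs, 5 of the 8 rats could each remove the call, M153 among them. The more abundant miR-30d-5p was at 13.71 to 14.01 in abstinence and 14.04 to 14.61 in withdrawal, without overlap. Its change was lower and under 1.5-fold (-0.43, SE 0.18, edgeR p 0.0202). Summed over the 13 arms, the level was 17200 to 22400 CPM in abstinence rats and 20800 to 29700 CPM in withdrawal rats.

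The last of the 14 were miR-425-3p and miR-374-3p. miR-425-3p, from the hairpin next to miR-191 in an intron of Dalrd3, was at 3.27, 2.55, 3.13 and 3.16 in abstinence rats M170, M363, M472 and M456 and at 2.43, 2.06, 2.31 and 2.70 in withdrawal rats M153, M366, M172 and M154. Abstinence rat M363 was below withdrawal rat M154, and the other 3 were above the withdrawal range. The change was 0.67 (SE 0.26, p 0.0141), and it was no longer called only when rat M366 was left out (p 0.0538). miR-374-3p, from the X-linked gene Ftx, had 7, 20, 6 and 28 counts in abstinence rats and 1, 11, 7 and 2 in withdrawal rats (1.57, SE 0.69, p 0.0309). Its call could be removed by each of 4 of the 8 rats, M153 among them.

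**Figure D4:**
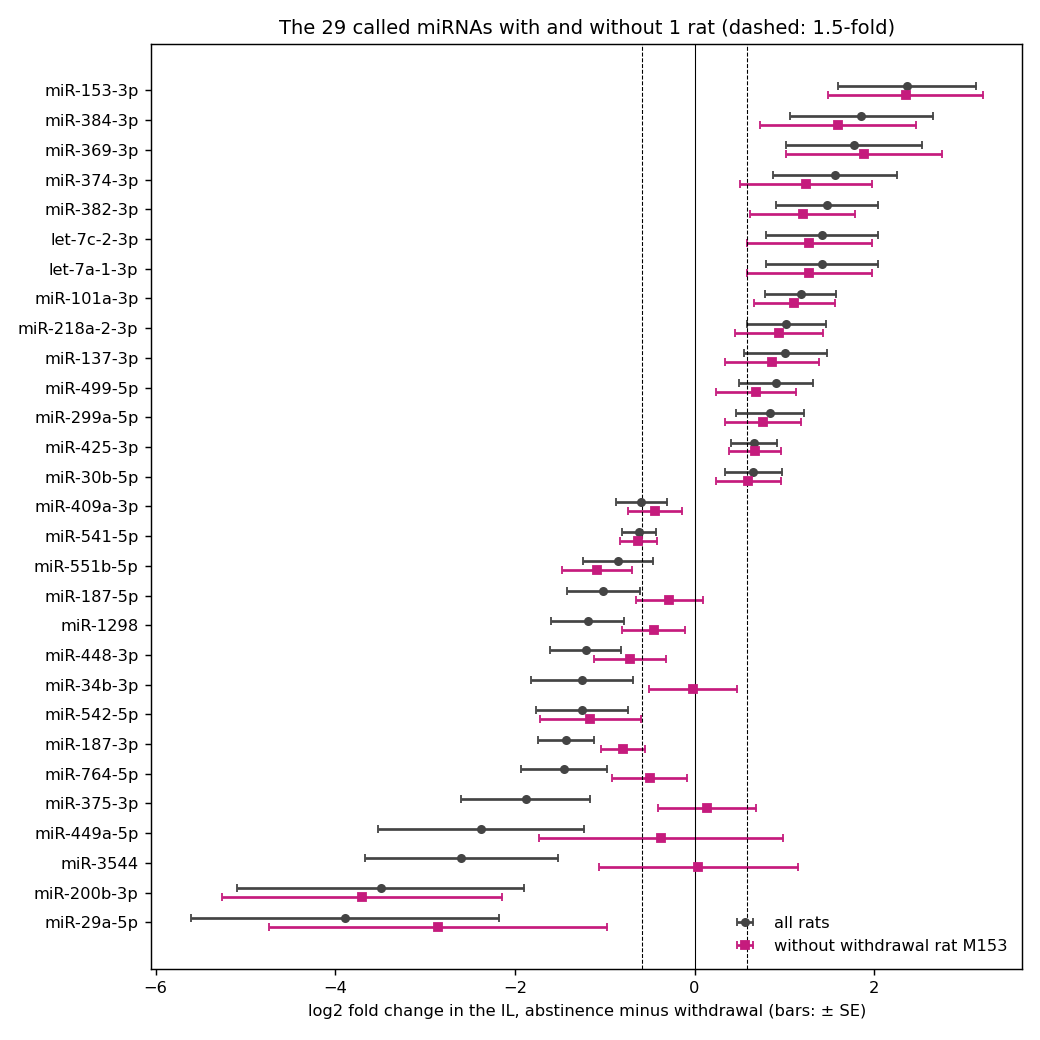
Log2 fold change (abstinence minus withdrawal) with its SE for the 29 called miRNAs, with all rats (grey circles) and without withdrawal rat M153 (pink squares); dashed lines mark 1.5-fold, and the value of miR-29a-5p, with 0 counts in abstinence, is fitted and no bound. miR-375-3p moved from -1.88 to 0.13 and miR-34b-3p from -1.25 to -0.02, and miR-153-3p, miR-541-5p and miR-200b-3p stayed near their first values.

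The miRNAs called higher shared several features, some of which may not be independent of the call. Of the 29 called in either direction, 24 had a mean log2 CPM under 5, beside 240 of the 457 tested. For 11 of the 14, the other arm of the hairpin was also tested, and in 11 of 11 the other arm was the more abundant. Their change was between -0.37 and 0.83, 8 of 11 were opposite in sign, and 0 were called. Of the 15 called lower, 11 had a tested other arm, which was the more abundant in 4, changed in the same direction in 7 and was called for the miR-187 pair. Each arm of that pair is counted as the partner of the other. The median level was 0.68 log2 CPM for those called higher and 2.30 for those called lower, beside 4.64 over all tested miRNAs with a sequence. The median GC content was 36.4% over the 13 called higher with a sequence, 47.8% over the 13 called lower and 50% over all with a sequence.

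The 13 called higher with a sequence hold let-7a-1-3p and let-7c-2-3p as separate entries. When all tested miRNAs with a sequence were split into 3 sets of equal size by GC content, 11 of the 13 called higher fell into the set of lowest GC. Of the 13 called lower, 6 fell into that set too, 3 into the middle and 4 into the high set. The set of lowest GC had a median change of 0.18, with 87 above 0 and 50 below. The middle and high sets had medians of -0.044 and 0.015. Across all of these miRNAs, GC content and change had a Spearman rho of -0.143, and of -0.081 over the 194 with a mean log2 CPM of at least 5, as a description over miRNAs that share libraries and depth. The base composition also varied between rats within a group. Relative to naive rats, the set of low GC minus that of high GC was at 0.08 in abstinence rat M472 and -0.71 to -0.66 in the other 3. It was at -0.15 in withdrawal rat M154 and -0.89 to -0.59 in the other 3. The part of base composition in the calls was not tested.

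The changes of the 29 miRNAs in the IL were set beside those in the PL and NAc of the same rats. The 14 called higher had a median change of 1.30 in the IL, -0.01 in the PL and 0.12 in the NAc, and 0 of them were called in the PL or NAc. The 15 called lower had a median of -1.25 in the IL, -0.10 in the PL and 0.05 in the NAc, of which miR-542-5p and miR-200b-3p were also called lower in the PL and miR-200b-3p in the NAc. In the NAc, miR-200b-3p was at 342 CPM in withdrawal rat M172. It was at 2.04 to 6.15 CPM in the other withdrawal rats and 2.46 to 9.61 CPM in abstinence rats. In the PL it was at 572 and 44.1 CPM in withdrawal rats M172 and M366. Rats M153 and M154, at 2.14 and 1.98 CPM there, were within the abstinence range of 0.669 to 6.58 CPM. As the 29 were chosen by their change in the IL, these medians describe them and support no difference between regions. The difference itself was tested across all 457 miRNAs in edgeR. That fit had no term for the rat, although the regions compared came from the same rats. For the IL change minus the PL change, 12 miRNAs had an unadjusted p under 0.05 and 0 an adjusted p under 0.05 (lowest 0.965), and for the IL change minus the NAc change these were 7 and 0 (lowest 0.665). DESeq2 and limma-voom also gave 0 adjusted calls for both differences.

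The lowest p of both differences was that of miR-187-3p. It changed by -0.10 (SE 0.31) in the PL and 0.05 (SE 0.30) in the NAc, so that the IL change minus that of the PL and of the NAc was -1.33 (SE 0.43, unadjusted p 0.00378) and -1.48 (SE 0.42, p 0.00146). Without rat M153 these differences were -0.63 (p 0.0841) and -0.84 (p 0.0234). miR-382-3p was next against the PL, where it changed by -0.85 (SE 0.54), with a difference of 2.32 (SE 0.78, p 0.00545). miR-743b-5p followed (p 0.0143), but it had 3 counts in the 8 IL libraries, all in rat M153. Against the NAc, miR-375-3p (-2.57, SE 0.98, p 0.0134) and miR-542-5p (-1.77, SE 0.69, p 0.0161) followed miR-187-3p. Without rat M153 these were -0.82 (p 0.309) and -1.57 (p 0.0516). The NAc was the region with the fewest calls between abstinence and withdrawal, 4, while the PL had 16, of which 13 were lower. The 4 in the NAc were miR-200b-3p, miR-429, miR-183-5p and miR-182, all lower. Every tested member of the miR-200 and miR-183 families was among the 13 of the PL. Summed, these families were at 2740 CPM in the PL and 1370 CPM in the NAc of withdrawal rat M172. The other rats were at no more than 235 and 64.1 CPM.

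**Figure D5:**
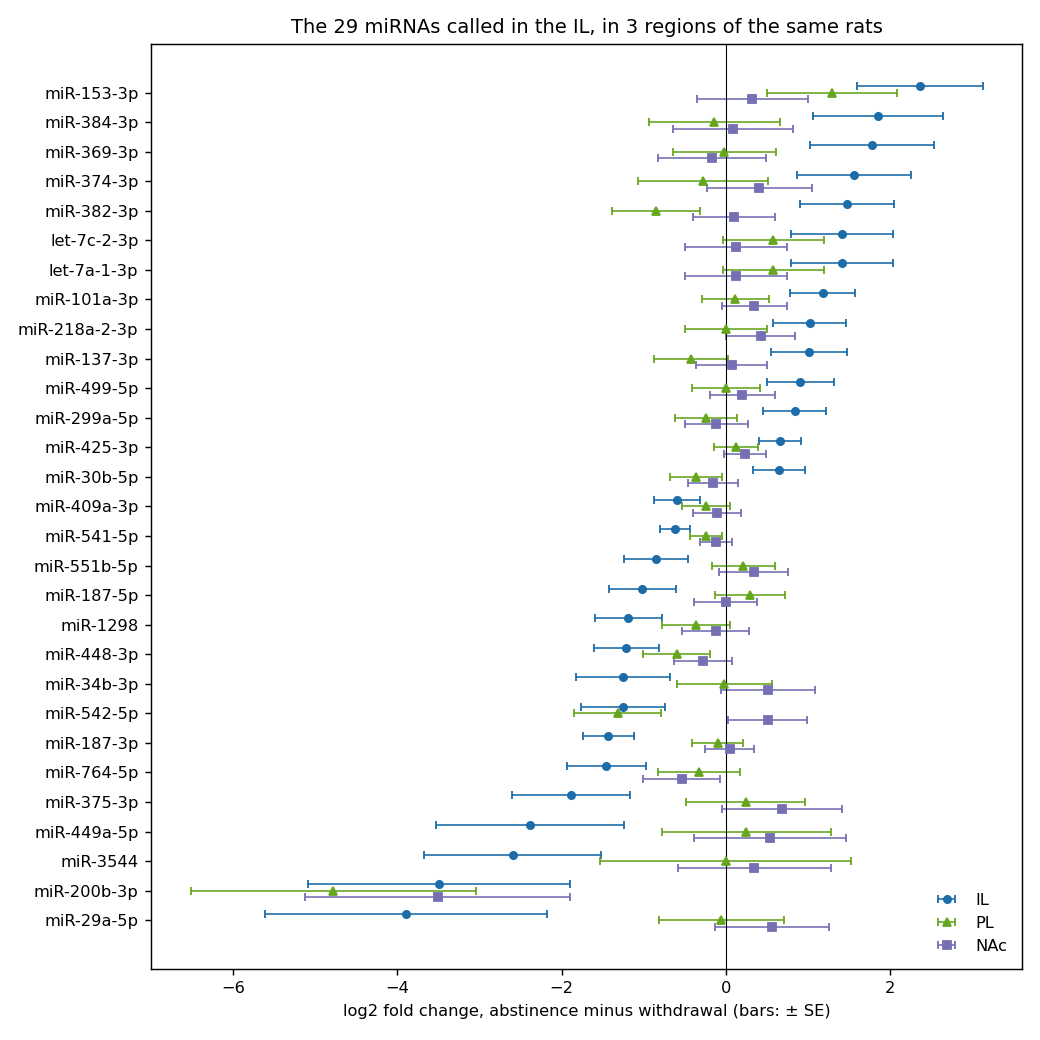
Log2 fold change (abstinence minus withdrawal) with its SE for the 29 miRNAs called in the IL, in the IL (circles), PL (triangles) and NAc (squares) of the same rats. The 14 miRNAs called higher have a median of 1.30 in the IL, -0.01 in the PL and 0.12 in the NAc, and miR-200b-3p is low in each region (-3.49, -4.78 and -3.51).

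The most abundant miRNAs had no call. The 5 with the highest mean count were miR-128-3p, miR-125a-5p, miR-127-3p, miR-328a-3p and let-7c-5p, with changes of -0.16 (SE 0.30), 0.11 (SE 0.18), -0.15 (SE 0.16), 0.05 (SE 0.22) and 0.11 (SE 0.19). miRNAs induced by neuronal activity, miR-132, miR-212, miR-134 and miR-485, had 0 calls among 8 arms, with changes from -0.41 to 0.22. Lists of other cells of the tissue had 0 calls with all rats in edgeR, with 2 oligodendrocyte, 6 immune and microglial, 6 vascular and 1 erythroid miRNA tested and medians of 0.25, 0.26, 0.27 and -0.15. With 1 rat left out, 2 vascular miRNAs were called higher without M153 and 1 without M170, M472, M456 or M172, and 1 immune miRNA without M472, M456 or M172 and in DESeq2. With all rats, 0 of 13 arms of the miR-17 clusters (median 0.03) and 0 of 3 of the embryonic miR-290 to miR-295 cluster (median 0.76) were called. The former had 1 call without M170, M363, M472 or M154, and the latter had 1 in DESeq2 and without M170, M363, M472 or M366, with medians from 0.26 to 1.43. Of 6 miR-29 arms, miR-29a-5p was called and the median was 0.14, and of 2 miR-101 arms, miR-101a-3p was called.

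The naive rats place each call. For miRNAs called higher, the abstinence mean was within the range of the 4 naive rats for 6 of 14 and the withdrawal mean for 9 of 14. For miRNAs called lower, these were 9 and 10 of 15. miR-101a-3p and miR-153-3p differed from naive rats by 1.43 and 2.39 (log2) in abstinence and by 0.25 and 0.02 in withdrawal. miR-541-5p differed by -0.58 in abstinence and 0.04 in withdrawal. For miR-382-3p, miR-499-5p and miR-30b-5p the values were 0.19, 0.35 and -0.21 in abstinence and -1.29, -0.56 and -0.86 in withdrawal. As all of these comparisons share libraries, they are given side by side and not tested against each other.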

How the data were processed

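The authors dissected IL, PL and NAc from frozen brains, prepared small RNA libraries (NEBNext) and obtained read counts per mature miRNA with CAP-miRseq; the deposited values are raw counts, whole numbers without normalization, for 723 miRNAs in 36 libraries. The study methods and the submitters' processing notes (mRatBN7.2, rn7) name different genome builds, so no coordinates are given. Rats were tied to libraries by the labels and the study's sample list, 1 naive NAc library by elimination. Of the 723 miRNAs, 95 had no count, and filterByExpr (minimum count 10, minimum total 15) kept 457. All 36 libraries were fitted with edgeR 4.0.16 (R 4.3.3, TMM, quasi-likelihood) with 1 mean per group and region and RIN as covariate, so log2 fold changes can differ from differences of group means. Their SEs are approximate. Log2 CPM used a prior count of 0.5. The fits were tested on simulated data with known changes. Alternatives were DESeq2 1.42.0, limma-voom (limma 3.58.1, the study's method), other scalings, filters and sets of libraries, and each rat left out. The 3 regions of 1 rat pair the libraries across regions (consensus correlation 0.117 in limma-voom with the rat as a block). The groups compared hold different rats. No 2 libraries of a group were duplicates.

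The members, the lists of miRNAs and the tests were chosen with earlier results of these data known. Named were all called miRNAs, their other arms and the 5 with the highest mean count. Up to 4 abundant members per list and the 3 with the lowest p in each difference between regions were also named. miR-543-3p, miR-412-5p, miR-101b-3p, miR-183-5p, miR-182, miR-429, miR-34c-5p, miR-30d-5p and members with 1 or 0 counts were chosen after their values were seen. Host genes and neighbours come from the RefSeq gene table of GRCr8. P-values of the permutation test measure the spread between rats. The edgeR fit of all 36 libraries takes the 3 regions of a rat as separate, so its p-values measure the spread between libraries. Python 3.11.15 and matplotlib made the figures.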

Additional observations from a re-analysis of the deposited data

Results flagged for a closer look

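In groups of 4 rats, a library was marked when its gap to the nearest of the others was above Dixon's 95% critical share of the group's range, which chance gives in about 1 of 20 groups. Of 98 groups examined (29 called miRNAs and 20 lists, in abstinence and withdrawal), 3 were marked. miR-542-5p was at -1.32 log2 CPM in withdrawal rat M366, against 0.40 to 0.54 in the other withdrawal rats. The summed oligodendrocyte miRNAs (both arms of miR-338) were at 1530 CPM in abstinence rat M170, against 540 to 643 CPM in the others. The summed immune and microglial miRNAs were at 3190 CPM in abstinence rat M472, against 1860 to 1970 CPM.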

How the results depend on the processing

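The count of 29 called miRNAs was 15 with at least 10 CPM in 4 libraries (6 higher, 9 lower; fewer miRNAs were tested), 18 in limma-voom (6 lower) and 18 with the rat as a replicate block in limma-voom (7 lower). The count of 1 with an adjusted p under 0.05 was 3 with library totals (miR-187-3p, miR-541-5p and miR-543-3p) and 0 in limma-voom, with the replicate block, and in edgeR on 12 or 8 IL libraries. For the IL change minus the PL change, 12 became 20 with every counted miRNA tested and 6 in limma-voom. For the IL change minus the NAc change, 7 became 17 with every counted miRNA, 4 with at least 10 CPM, 2 in limma-voom and 3 with the replicate block. Apart from these construction effects the cause was not tested. Leaving out 1 rat at a time gave 17 (without M153) to 43 (without M172) calls, 9 to 22 higher, 8 to 24 lower, 0 to 1 with an adjusted p under 0.05, 4 to 36 for the difference from the PL and 6 to 17 for that from the NAc. Without rat M153, 3 changes reversed, and with each rat left out in turn miR-375-3p ranged from -2.29 to 0.13, miR-3544 from -3.45 to 0.043 and miR-764-3p from -0.63 to 1.52, the upper ends without M153. For miR-187-3p the adjusted p was 0.00123 (DESeq2) to 0.321 over the other settings. Over all results and settings, 1331 values were rated the same as in the main fit, 159 lost and 16 gained the threshold, 49 moved and 3 reversed. A change of a miRNA was rated the same if it kept its sign and side of the threshold. Uncalled miRNAs whose sign turned by less than the SE were also rated the same. So were counts of calls within 1.5-fold of the main count and list medians that shifted by less than the SD of their members. Of the 14 called higher, 7 had a mean under 20 counts, and 4 stayed called without rat M153 and 4 without rat M456.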
